A study of Drosophila melanogaster with 8 samples.

Results

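The mitochondrial genome of Drosophila melanogaster is a small circular DNA that encodes 13 subunits of the respiratory chain and the ATP synthase, the 2 ribosomal RNAs (rRNAs) of the mitochondrial ribosome and the 22 transfer RNAs (tRNAs) that its translation needs. Its genes are those whose FlyBase symbol starts with mt:, and all 37 of them had a row in the count tables, out of 17445 gene identifiers. The replication origin, mt:ori, has such a symbol too and had no row. RNA-seq was performed on whole second-instar larvae, with 4 libraries from Ldh mutants (w[1118]; Ldh[16/17]) and 4 from controls (w[1118]; Ldh[precise]). Ldh encodes lactate dehydrogenase, which regenerates cytosolic NAD+ by turning pyruvate into lactate. The mutants carried a trans-heterozygous pair of Ldh alleles, the controls a precise excision at the locus, and both shared the w[1118] background. Each library was made from a pool of 25 larvae grown for 60 hours at 25 °C, and libraries are named here by the replicate number of their label (1, 2, 3 and 6 in mutants, and 1, 2, 5 and 6 in controls).

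Genes lie on both strands of this genome, and long precursor RNAs are made from each. In animal mitochondria many tRNAs sit between the protein and rRNA genes of a precursor and are cut out of it, which frees the RNAs on either side. Complexes I, III and IV pump protons while passing electrons from NADH to oxygen, and complex V, the ATP synthase, uses the gradient. Each of these complexes combines mitochondrially encoded subunits with others imported from the cytosol. Mitochondrial respiration, fed by redox shuttles, is another route by which a cell reoxidises the NADH that glycolysis makes, so these transcripts bear on the setting in which Ldh acts.

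A library held between 371700 and 560865 reads assigned to a gene identifier, which were 1.24% to 1.62% of all counts in its file, unassigned ones included. The check of the labels rested on few reads, with 0 reads of Ldh in every mutant library and 1 to 5 in the controls. Of 10 markers chosen for larval tissues, elav (neurons) had 847 to 1141 reads, Mhc and Act57B (muscle) had 104 to 225 and 19 to 41, and none of the other 7 exceeded 12 reads in any library, so these markers could not check the tissue. The setting that decides which strand a read is counted on is not given in the sources used here. The reads of a feature may therefore come from the named gene or from RNA of the other strand at the same place, and each gene's strand is given below as annotated. Which strand was counted was not tested. Levels and fold changes below are those of features as counted, and need not be those of the named RNAs. In whole larvae, fewer cells of a type and less RNA per cell cannot be told apart.

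Mitochondrial genome features took a small share of the assigned reads, and the share overlapped between genotypes. The mutant libraries held 1786, 2102, 1734 and 1644 such reads (replicates 1, 2, 3 and 6), and the controls 1561, 1555, 2253 and 1658 (replicates 1, 2, 5 and 6). As a percentage of gene-assigned reads this was 0.387 ± 0.0398 across mutant libraries against 0.402 ± 0.0317 across controls (SD, n = 4 each). Single libraries ran from 0.347% in mutant replicate 3 to 0.446% in control replicate 6. Of the 37 features, 27 had at least 1 read in some library and 10 had none, all 10 of them tRNA genes. The 13 features with a mean of at least 10 reads per library held 98.9% of the mitochondrial reads, and the 4 with most reads, mt:Cyt-b, mt:ND4L, mt:lrRNA and mt:tRNA:Tyr-GTA, held 71.9%. The feature counted most, mt:Cyt-b, ranked at place 166 among all features of the files.

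The reads were spread over features annotated on both strands. On the plus strand lie 23 of the genes, among them mt:ND2, mt:ND3, mt:ND6, mt:Cyt-b and all genes for subunits of complexes IV and V. On the minus strand lie 14, namely mt:ND1, mt:ND4, mt:ND4L, mt:ND5, both rRNA genes and 8 tRNA genes. Minus-strand features held 54.9% ± 4.37 of the mitochondrial reads across mutant libraries against 54.6% ± 3.23 across controls (SD, n = 4 each), with single libraries from 49.5% to 58.9%. Without the rRNA features, those annotated on the minus strand held the smaller part, 48.3% in mutants and 47.5% in controls. With the rRNA features included, and over the summed lengths of the genes, minus-strand features had 142.1 reads per kb and library and plus-strand features 102.7. These are sums by annotated strand and do not say which strand the RNA came from. Neighbouring genes overlap at 4 places on this molecule, and at 1 of them the strands differ, where mt:tRNA:Trp-TCA and mt:tRNA:Cys-GCA share 8 bp. No protein or rRNA gene of this genome overlaps a gene on its other strand.

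**Figure D1:**
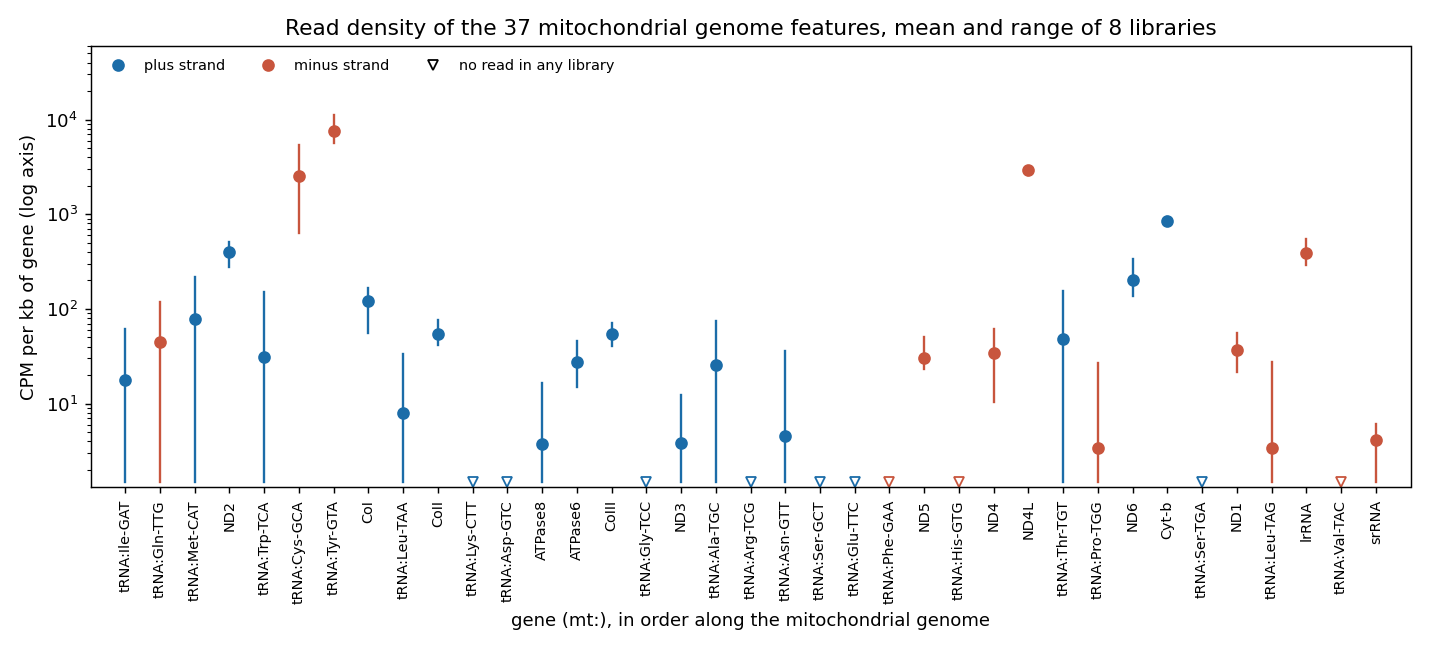
CPM (the share of a library's gene-assigned reads, scaled to 1e6) per kb of gene on a log axis, for all 37 mitochondrial genome features in their order along the molecule, coloured by annotated strand. Points are means and lines the range of 8 libraries, and open triangles mark the 10 features without any read. Lines that reach the lower edge include libraries without a read. On this scale, which may overstate short genes, mt:tRNA:Tyr-GTA, mt:ND4L and mt:tRNA:Cys-GCA stand highest.

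Read density ranged widely between members. Levels are compared here as CPM per kb, that is CPM by library total divided by the gene's length. A read that overlaps a gene only in part may count for it, so this measure may overstate short genes beside longer ones. mt:tRNA:Tyr-GTA and mt:tRNA:Cys-GCA are only 66 and 62 bp long. How far their density is overstated was not tested. Over the 8 libraries the highest was mt:tRNA:Tyr-GTA at 7575 ± 1977 CPM per kb (SD, n = 8), followed by mt:ND4L at 2940 ± 210, mt:tRNA:Cys-GCA at 2544 ± 1949 and mt:Cyt-b at 847 ± 67.9. Next came mt:ND2 at 399 ± 71.2 and mt:lrRNA at 390 ± 93.5, then mt:ND6 at 200.3 ± 63.7 and mt:CoI at 121.0 ± 38.2. The lowest 5 of the 13 well-counted features lay between 54.6 (mt:CoIII) and 30.6 CPM per kb (mt:ND5). In this order, mt:tRNA:Tyr-GTA and mt:ND4L, and mt:Cyt-b and mt:ND2, were the only neighbours whose ranges over the libraries did not overlap. By mean CPM, not divided by length, mt:tRNA:Tyr-GTA stood at 495 in mutants and 504 in controls. That was below mt:ND4L (852 and 859) and mt:Cyt-b (929 and 997). Some of the largest contrasts were between adjacent genes of the same strand: mt:ND4L and mt:ND4 share 1 base at their boundary, yet the CPM per kb of mt:ND4L was 85.5 times that of mt:ND4. That ratio was at least 45.6 in each library.

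The 2 rRNA features were read very unequally. The large rRNA, mt:lrRNA (FBgn0013686; 12735 to 14058, minus strand), forms the core of the large ribosomal subunit, and mt:srRNA (14131 to 14916, minus strand) that of the small one, with mt:tRNA:Val-TAC between them. The mutant libraries held 185, 363, 191 and 208 reads of mt:lrRNA (replicates 1, 2, 3 and 6) and the controls 211, 225, 368 and 151 (replicates 1, 2, 5 and 6). Mutant replicate 2 and control replicate 5 were high, and the groups overlapped. The log2 fold change of mt:lrRNA, mutant over control, was -0.04 (SE 0.18, 95% interval -0.44 to 0.35; edgeR adjusted p = 0.953). The feature mt:srRNA had 0 to 2 reads in every library and was not tested.

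Of the 37 members, 13 passed the expression filter and were tested together with 2576 other features in an edgeR fit. Across this fit, 3.17% of the 2589 features were called at an adjusted p under 0.05, and 1.54% were called as higher in mutants (40 higher and 42 lower, or 38 and 66 when scaled by library totals). Of the 13 members, 1 was called, mt:CoI, higher in mutants. The log2 fold change of 7 members was above 0 and that of 6 below, with a median of 0.01 beside 0.01 over all features tested. Without overlap between the groups was 1 of the 13, again mt:CoI, beside 9.42% of all features tested.

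**Figure D2:**
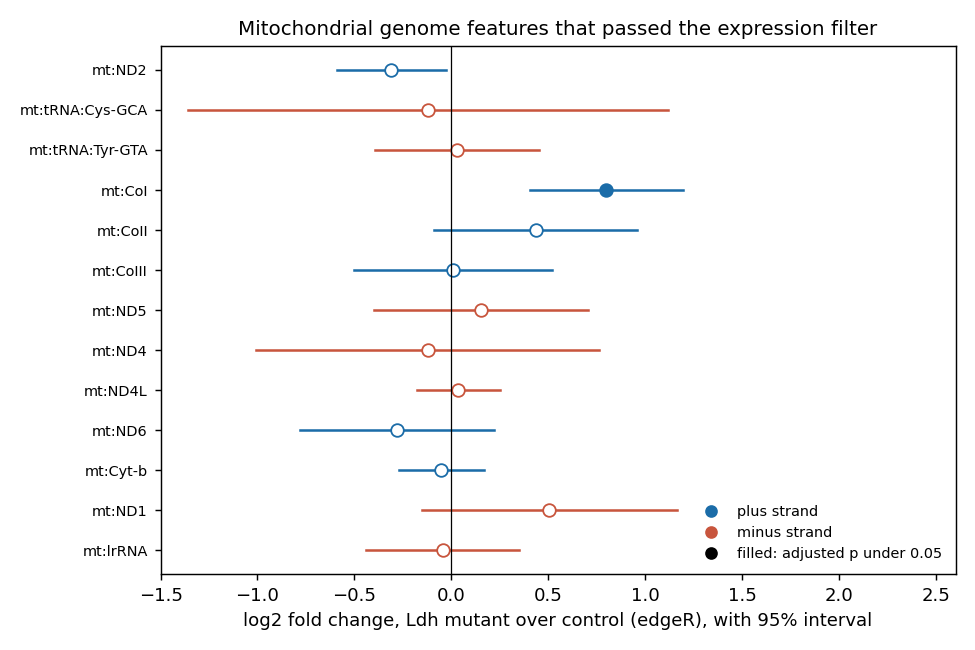
Log2 fold change of the 13 tested mitochondrial genome features, Ldh mutant over control, from edgeR with TMM scaling, in the order of the genes along the molecule and coloured by strand. Lines are 95% intervals and the filled point has an adjusted p under 0.05; mt:CoI lies at 0.80 and its interval starts at 0.40, while the intervals of all others but mt:ND2 include 0.

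The feature of mt:CoI was higher in Ldh mutants. The gene (FBgn0013674; 1474 to 3009, plus strand, 5 bp from mt:tRNA:Tyr-GTA) encodes subunit I of cytochrome c oxidase, which holds the site where complex IV reduces oxygen. The mutant libraries had 93, 126, 106 and 114 reads of mt:CoI (replicates 1, 2, 3 and 6), and the controls 67, 71, 73 and 32 (replicates 1, 2, 5 and 6). All 4 mutant libraries lay above all 4 controls, and control replicate 6 was the lowest. In CPM this was 233 ± 21.3 across mutant libraries against 138 ± 39.2 across controls (SD, n = 4 each). The log2 fold change was 0.80 (SE 0.18, 95% interval 0.40 to 1.19; edgeR adjusted p = 0.0281). The exact permutation test gave a two-sided p of 0.0286 for mt:CoI, the smallest that 4 libraries against 4 allow, and is 1 of 27 such tests run over the members with reads, not adjusted among them.

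The call of mt:CoI depended on which libraries were included. It ended without mutant replicate 2 (edgeR adjusted p = 0.0914), mutant replicate 6 (0.0759) or control replicate 5 (0.120), with log2 fold changes of 0.77, 0.77 and 0.76. Without control replicate 6, its lowest library, the log2 fold change of mt:CoI was 0.63 (edgeR adjusted p = 0.0480). Under the other scalings, filters and tools run it stayed between 0.75 and 0.84 and was called each time. As a share of the mitochondrial reads alone, mt:CoI took 5.21%, 5.99%, 6.11% and 6.93% in mutant replicates 1, 2, 3 and 6, and 4.29%, 4.57%, 3.24% and 1.93% in control replicates 1, 2, 5 and 6. The means were 6.06% ± 0.707 and 3.51% ± 1.20 (SD, n = 4 each). These are the same mt:CoI reads over another total, so the shares are a description and no separate test.

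The other subunits of complex IV were not called. mt:CoII (FBgn0013675; 3083 to 3767, plus strand) encodes the subunit that takes electrons from cytochrome c. It had 13, 22, 26 and 18 reads in mutant replicates 1, 2, 3 and 6 and 13, 12, 17 and 14 in control replicates 1, 2, 5 and 6. Mutant replicate 1 lay within the range of the controls in CPM, and the log2 fold change was 0.43 (SE 0.24, 95% interval -0.09 to 0.96; edgeR adjusted p = 0.438). mt:CoIII (FBgn0013676; 4736 to 5524, plus strand), the remaining core subunit of the oxidase, had 20, 24, 19 and 16 reads in the mutants and 18, 18, 18 and 21 in the controls. Its log2 fold change was 0.01 (SE 0.24, 95% interval -0.50 to 0.52; edgeR adjusted p = 0.994). Together the complex IV features took 7.05% to 9.002% of the mitochondrial reads of the mutants and 4.04% to 6.50% in the controls, and 70.2% of their reads were those of mt:CoI.

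**Figure D3:**
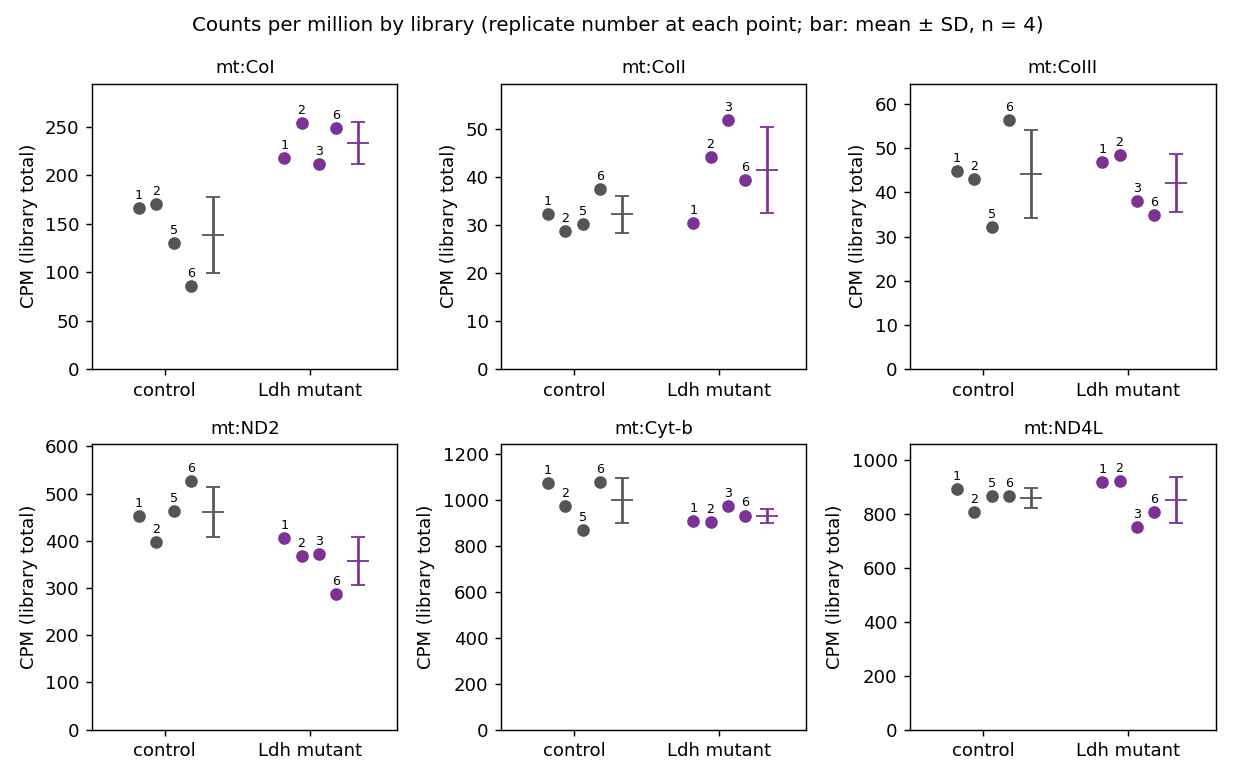
CPM by library total of mt:CoI, mt:CoII, mt:CoIII, mt:ND2, mt:Cyt-b and mt:ND4L in each library, with the replicate number at each point and the mean ± SD of 4 libraries beside it. The mutant and control libraries of mt:CoI do not overlap, with means of 233 and 138 CPM, and those of the other 5 do.

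Complex I, the NADH dehydrogenase, has 7 of its subunits encoded here, and none was called in either direction. Their share of the mitochondrial reads was 37.3% ± 1.21 across mutant libraries against 39.0% ± 1.03 across controls (SD, n = 4 each). mt:ND2 (FBgn0013680; 240 to 1263, plus strand), a membrane subunit of the proton-pumping arm, had 173, 182, 186 and 131 reads in mutant replicates 1, 2, 3 and 6 and 182, 166, 260 and 196 in control replicates 1, 2, 5 and 6. Its CPM was 358 ± 50.7 across mutant libraries against 460.3 ± 53.2 across controls (SD, n = 4 each), and mutant replicate 1 (405.9) overlapped control replicate 2 (397.6). The log2 fold change of mt:ND2 was -0.31 (SE 0.13, 95% interval -0.59 to -0.03), with an unadjusted p of 0.0331 and an edgeR adjusted p of 0.264. By the unadjusted p, 15.4% of all features tested lay under 0.05.

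mt:ND4L (FBgn0013683; 9545 to 9835, minus strand), a small membrane subunit, was among the most evenly read members, with 392, 459, 376 and 370 reads in mutant replicates 1, 2, 3 and 6 and 360, 337, 487 and 322 in control replicates 1, 2, 5 and 6. The groups overlapped in CPM, with 852 ± 85.2 across mutant libraries against 859 ± 37.2 across controls (SD, n = 4 each). For mt:ND4L the log2 fold change was 0.04 (SE 0.10, 95% interval -0.18 to 0.25; edgeR adjusted p = 0.930).

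The features of mt:ND4, mt:ND5 and mt:ND1, the longer complex I genes of the minus strand, were thinly counted. mt:ND4 (FBgn0262952; 8207 to 9545) had 6, 26, 14 and 36 reads in mutant replicates 1, 2, 3 and 6 and 13, 34, 26 and 13 in control replicates 1, 2, 5 and 6, a wide scatter in both groups (log2 fold change -0.12, SE 0.41; edgeR adjusted p = 0.946). mt:ND5 (FBgn0013684; 6409 to 8125) had 20, 22, 20 and 40 in the mutants, with replicate 6 apart, and 18, 21, 31 and 19 in the controls (log2 fold change 0.15, SE 0.26; edgeR adjusted p = 0.864). mt:ND1 (FBgn0013679; 11721 to 12659), which lies near the ubiquinone site of the enzyme, had 16, 26, 10 and 24 against 9, 12, 21 and 10 (log2 fold change 0.50, SE 0.31; edgeR adjusted p = 0.496). In each of the 3 the groups overlapped.

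The plus-strand features of complex I other than mt:ND2 were mt:ND6 and mt:ND3, both membrane subunits. mt:ND6 (FBgn0013685; 9971 to 10495) had 52, 43, 40 and 38 reads in mutant replicates 1, 2, 3 and 6 and 43, 30, 65 and 65 in control replicates 1, 2, 5 and 6. Its groups overlapped (log2 fold change -0.28, SE 0.23; edgeR adjusted p = 0.667). mt:ND3 (FBgn0013681; 5608 to 5961) had 1, 1, 1 and 2 reads in the mutants and 0 in all 4 controls. The 95% counting interval of the control to mutant ratio, 0 to 1.17, includes equal levels. The exact permutation test gave mt:ND3 a two-sided p of 0.0286, the same as for mt:CoI and likewise not adjusted among the members. With so few reads, these values cannot settle whether mt:ND3 differed. mt:ND3 lay below the filter. The fit without a filter, in which 1.6% of 11473 features were called, gave an edgeR adjusted p of 0.498. Its log2 fold change for mt:ND3 was 3.43 (95% interval 0.44 to 6.43), with an unadjusted edgeR p of 0.0248. mt:ND3 was the other of the 2 members without overlap between the groups, out of 27 with reads, beside 3.9% of all features with a read.

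The single subunit of complex III encoded here, cytochrome b, had the most reads of all members. mt:Cyt-b (FBgn0013678; 10499 to 11635, plus strand) had 387, 448, 486 and 426 reads in mutant replicates 1, 2, 3 and 6 and 431, 407, 486 and 400 in control replicates 1, 2, 5 and 6. In CPM this was 929 ± 31.5 across mutant libraries against 997 ± 99.0 across controls (SD, n = 4 each), with the mutants inside the range of the controls. The log2 fold change was -0.05 (SE 0.10, 95% interval -0.27 to 0.17; edgeR adjusted p = 0.895). It lies 3 bp from mt:ND6 on the same strand and its CPM per kb was 4.23 times higher, by 2.84 to 6.26 times in single libraries.

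The ATP synthase subunits were at the edge of detection. mt:ATPase6, which forms part of the proton channel, had 5 to 14 reads per library, and mt:ATPase8, which overlaps it by 7 bp, had 0 or 1. Neither passed the filter, and their groups overlapped.

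Reads of tRNA features came almost wholly from 2 neighbours on the minus strand. mt:tRNA:Cys-GCA (FBgn0013690; 1322 to 1383) and mt:tRNA:Tyr-GTA (FBgn0013710; 1403 to 1468) carry cysteine and tyrosine, lie 19 bp apart, and stand between the plus-strand genes mt:tRNA:Trp-TCA and mt:CoI. They held 97.3% of all tRNA reads. The other 20 tRNA features had 65 reads between them over 8 libraries, and none had more than 6 in a library.

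mt:tRNA:Tyr-GTA had 278, 245, 221 and 180 reads in mutant replicates 1, 2, 3 and 6 and 149, 179, 267 and 276 in control replicates 1, 2, 5 and 6. The groups overlapped, with 495 ± 112 CPM across mutant libraries against 504 ± 164 across controls (SD, n = 4 each; log2 fold change 0.03, SE 0.20; edgeR adjusted p = 0.974). mt:tRNA:Cys-GCA had 136, 94, 23 and 18 reads in mutant replicates 1, 2, 3 and 6 and 28, 29, 108 and 125 in control replicates 1, 2, 5 and 6. It was high in mutant replicates 1 and 2 and control replicates 5 and 6, and low in the other 4 libraries, so that it divided both genotypes. The log2 fold change of mt:tRNA:Cys-GCA, -0.12 (SE 0.58, 95% interval -1.36 to 1.11; edgeR adjusted p = 0.965), spans differences in both directions that these libraries could not detect.

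**Figure D4:**
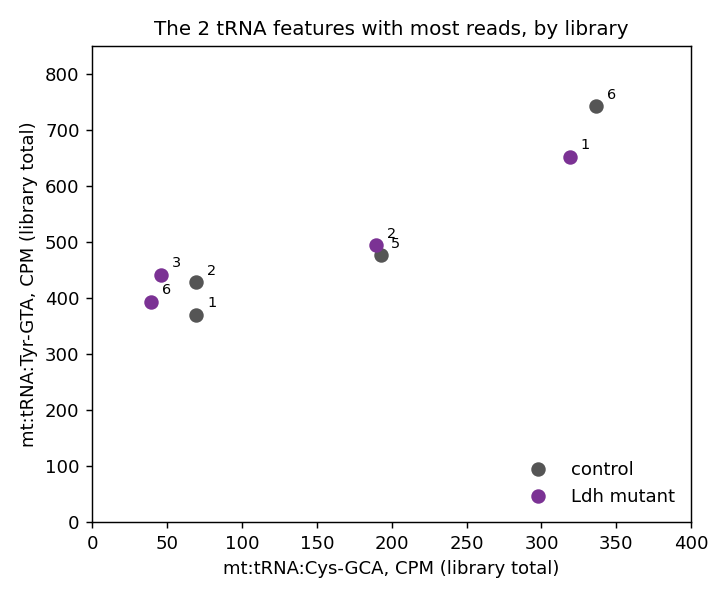
CPM (by library total) of mt:tRNA:Cys-GCA on the horizontal axis and of mt:tRNA:Tyr-GTA on the vertical axis, 1 point per library with its replicate number. Mutant replicate 1 and control replicate 6 are highest in both features, at 319 and 336 CPM of mt:tRNA:Cys-GCA.

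Spread within the genotypes, set against counting noise, also differed between members. The chi-square of the reads within groups, per degree of freedom, is about 1 where libraries differ by counting alone. Where they differ by more, it also rises with the number of reads. It therefore does not order members, or members against all features, by relative spread. Its median was 2.64 over the 13 tested members and 1.49 over all features tested. It was highest for mt:tRNA:Cys-GCA (46.6, rank 31 of 2589), followed by mt:lrRNA (16.4) and mt:tRNA:Tyr-GTA (16.0), and lowest for mt:CoII (0.539) and mt:CoIII (0.77). For mt:CoI it was 2.62 and for mt:Cyt-b 2.64. The thinly counted mt:ND4 stood at 6.32, below mt:lrRNA, though its relative spread was wider. Over the 8 libraries mt:ND4 had 34.4 ± 17.9 CPM per kb and mt:lrRNA 390 ± 93.5 (SD).

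Few nuclear genes that act on the mitochondrial genome and its RNA could be tested, and none was called, beside 3.17% of all features tested. With so few tested, the absence of a call says little about these genes. Of the genes for transcription and replication of mitochondrial DNA, 12 of the 13 listed were matched, and 3 were tested. Among these TFAM, which packages the DNA and helps start transcription, had a log2 fold change of -0.04 (SE 0.36) and the replicative helicase gene mtDNA-helicase one of -0.05 (SE 0.22). PolrMT, which encodes the mitochondrial RNA polymerase, had 0 or 1 read per library. Of the genes for mitochondrial RNA processing and decay, 12 of 13 were matched and 5 tested, among them SLIRP2, of a family of RNA-binding proteins (log2 fold change 0.21, SE 0.14), and PNPase, an RNA-degrading enzyme (-0.01, SE 0.16). Of 89 nuclear subunits of oxidative phosphorylation 19 were tested, 1 was called as higher and none as lower, beside 3.17% of all features called and 1.54% called as higher. Their median log2 fold change was 0.13, beside 0.01 over all features tested. The called gene was ND-ASHI of complex I (0.51, SE 0.12; edgeR adjusted p = 0.0395). These features are subject to the same uncertainty of strand.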

How the data were processed

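RNA-seq was analysed in 8 libraries of whole larvae. The deposited files hold raw read counts per FlyBase identifier, 1 library per file, which the authors did not normalise. Tools listed in the submitters' processing notes are HTSeq 0.6.1p1, Bowtie2 2.2.4, TopHat2 2.0.13, Trimmomatic 0.32, DESeq2 and CASAVA, with no order or role. Build, annotation, library kit and strand setting are not given in the sources used here, and the study's methods describe another route (transcript quantification) and heterozygous controls, so the labels were followed. In HTSeq a read that overlaps more than 1 feature can be set aside as ambiguous. Lines that name no gene (5 per file) entered neither the library sizes nor any test. They held 65.1% to 77.2% of all counts as no feature and 21.2% to 33.7% as not uniquely aligned.

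Symbols, strands and positions (sequence mitochondrion_genome) came from the BDGP6 annotation, release 115, which may not be the one used for counting. The mutant and control counts were compared by edgeR 4.0.16 (R 4.3.3), quasi-likelihood, after filterByExpr and TMM scaling, without covariates, with Benjamini-Hochberg adjustment over all features. Fold changes use TMM scaling, and CPM printed per library use library totals. Exact two-sided permutation tests used log2(CPM + 1) over all 70 splits. The interval of a ratio of reads covers counting error only. Whether libraries of a group came from separate cultures is not stated, so p-values reflect only how these samples spread, and that spread may be technical. Within groups every pair of libraries differed by more than counting noise (chi-square per degree of freedom 1.63 to 10.5). The members and lists were chosen with earlier results of these data known. All members may be named; values of every library are given for members with a mean of at least 10 reads, or called, or without overlap between groups. The fit was also run on a single set of simulated counts. Their spread followed the mean count of a feature alone, so that run is no check of the calls in these data.

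Alternatives were each library left out in turn, the replicate number as a block on libraries 1, 2 and 6, limma-voom (limma 3.58.1), DESeq2 1.42.0, other scalings (upper quartile, size factors from DESeq2, library totals, and TMM computed without mitochondrial features), and other filters (none, or 1 CPM reached in 4 libraries).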

Additional observations from a re-analysis of the deposited data

Results flagged for a closer look

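Within each genotype, values of the 4 libraries were screened by Dixon's ratio at its 95% critical value. This picked out 3 of 42 sets, and chance alone would pick about 2.1 (1 in 20). For mt:ND5, mutant replicate 6 stood at 87.5 CPM while the remaining mutants lay between 40.0 and 46.9. For mt:ND6, mutant replicate 1 stood at 122.0 CPM while the remaining mutants lay between 80.0 and 86.7. The share of all counts assigned to genes was 1.24% in control replicate 6 and between 1.53% and 1.57% in the remaining controls.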

How the results depend on the processing

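The fit called 82 features in all, 184 without an expression filter, and from 57 (without control replicate 5) to 164 (without mutant replicate 3) with a library left out. Over the same omissions the number of members called was 0 to 1, and mt:CoI had log2 fold changes of 0.63 to 0.91. It was called in 16 of 19 fits, the exceptions being those without mutant replicate 2, mutant replicate 6 or control replicate 5. Of 234 refits of single members, 31 changed sign, none of them in a member that was called. Signs changed for mt:CoIII with upper-quartile scaling (-0.012), library totals (-0.042), no filter (-0.0093) and the filter of 1 CPM (-0.012), and with library totals for mt:ND4L (-0.013) and mt:tRNA:Tyr-GTA (-0.024). With a library left out, log2 fold changes ran from -0.14 to 0.13 for mt:CoIII, -0.0021 to 0.078 for mt:ND4L, -0.16 to 0.27 for mt:ND5, -0.27 to 0.067 for mt:lrRNA, -0.80 to 0.41 for mt:tRNA:Cys-GCA, -0.12 to 0.26 for mt:tRNA:Tyr-GTA and -0.56 to 0.21 for mt:ND4. The cause was not tested. Over all counts of the files, unassigned ones included, mitochondrial reads made up 0.00580% in mutants and 0.00587% in controls. Without rRNA, minus-strand features held 48.3% and 47.5% of the mitochondrial reads. Depth limits the 24 untested members.

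Same-numbered libraries did not deviate together (correlations of -0.113, 0.0085 and -0.038 for numbers 1, 2 and 6), and none correlated best with its own number. The labels do not say what the number stands for, and these correlations cannot decide whether such libraries shared a batch. With the replicate block on libraries 1, 2 and 6, 138 features were called, against 118 in these libraries without it. mt:CoI stood at 0.81 with the block and 0.79 without (edgeR adjusted p = 0.0102 and 0.0380). With and without the block, signs changed for mt:CoIII (-0.11 and -0.11), mt:lrRNA (0.14 and 0.16) and mt:tRNA:Cys-GCA (0.30 and 0.26).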

Other observations

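The libraries with many reads of mt:tRNA:Cys-GCA were also those with most of mt:tRNA:Tyr-GTA, a pattern noticed in the data and not tested. In mutant replicates 1 and 2 and control replicates 5 and 6, mt:tRNA:Cys-GCA stood at 319, 189, 193 and 336 CPM and mt:tRNA:Tyr-GTA at 652, 494, 476 and 743 CPM. In mutant replicates 3 and 6 and control replicates 1 and 2, mt:tRNA:Cys-GCA stood at 46.0, 39.4, 69.6 and 69.5 CPM and mt:tRNA:Tyr-GTA at 442, 394, 371 and 429 CPM. Not uniquely aligned reads made up 24.4%, 32.0%, 24.0% and 33.7% of all counts in the former and 27.5%, 21.9%, 21.2% and 23.4% in the latter. Their part in the pattern was not tested. mt:CoI, whose start lies 5 bp beyond mt:tRNA:Tyr-GTA, showed no such division in the mutants, at 218 and 254 CPM in the former and 212 and 249 in the latter. In the controls it was lower in the former, at 130.2 and 86.1 CPM against 167 and 170.0 in the latter.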
